A study of Mus musculus with 2 samples.

Results

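Ion channel genes of mouse pancreatic islet cells were described from droplet single-cell RNA counts, by the hormone that led each cell and by library. The genes were those whose symbols name a potassium channel subunit (Kcn), a voltage-gated calcium (Cacn) or sodium (Scn) channel subunit, a TRPM, TRPV or TRPC channel, or one of the sulfonylurea receptor genes Abcc8 and Abcc9. This rule matched 162 of the 32285 features. Of these, 51 reached 5 CPM, the gene's share of all UMIs in CPM units, in the summed cells of at least 1 leading hormone over both libraries, and 40 were described. The other 11 passed only in the somatostatin-led sum, each on under 10 UMIs there, and 111 stayed below 5 CPM, 13 of them with no UMI. Just inside the limit stood Kcnu1 at 5.84 CPM, and just outside it Kcnh6 at 4.75 and Cacng4 at 4.45 CPM.

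Islets came from 12-week-old female mice on a C57BL/6 background, with a beta-cell deletion of Spop (labelled SpopβKO) or from Spop fl/fl controls, and each genotype had 1 library. Spop encodes a substrate adaptor of a cullin ubiquitin ligase. The islets of both genotypes had recovered for 3 days in RPMI medium with 10 mM glucose before they were dispersed, and dead cells and debris had been removed. The labels give neither the number of mice pooled, nor the Cre driver, nor the deleted exons. A single library per genotype gives no replicate check, so no test was made. Intervals are 95% intervals that cover the counting of UMIs alone, and a difference between genotypes is one between single libraries.

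The SpopβKO matrix held 89977773 UMIs in 10033 barcodes and the Spop fl/fl matrix held 82541585 in 7768, of which 8842 and 6850 barcodes were kept. The kept sets shared 14 barcode sequences. Insulin-led (Ins-led) cells, those with more insulin UMIs than of any other hormone, numbered 7488 in the SpopβKO library and 4762 in the Spop fl/fl library, with medians of 8016 and 9444 UMIs per cell. Glucagon-led (Gcg-led) cells numbered 1191 and 1897, pancreatic polypeptide-led (Ppy-led) cells 145 and 162, and somatostatin-led (Sst-led) cells 14 and 24. Levels below are CPM of the summed cells with TMM factors, a scaling that trims extreme genes. In these sums fewer cells with a transcript and less of it per cell cannot be told apart. Beta-cell markers other than insulin, 7 genes with Iapp and Mafa among them, summed to 22948 and 13628 CPM in Ins-led cells and to 3038 and 2688 CPM in Gcg-led cells of the SpopβKO and the Spop fl/fl library. The 7 alpha-cell markers summed to 4881 and 4519 CPM in Gcg-led cells and to 396 and 403 CPM in Ins-led cells. Spop itself was not lower in Ins-led cells labelled SpopβKO, at 85.3 CPM, against 68.9 CPM in Spop fl/fl. A 3′ tag outside the deleted exons would not read a deletion, so this level does not check the genotype, and the library is called by its label throughout.

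Insulin, glucagon and somatostatin are released when calcium enters through voltage-gated channels of electrically excitable islet cells. In beta cells, glucose metabolism raises ATP, which closes ATP-sensitive potassium (KATP) channels and depolarizes the membrane, and voltage-gated potassium channels then repolarize it. Background potassium channels of the Kcnk family help to set the resting potential, auxiliary subunits shape gating and surface delivery, and several TRPM channels carry depolarizing cation currents.

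The promoters of Kcna2, Kcnk16 and Trpm5 are shown because these genes were called higher in Ins-led cells of the library labelled SpopβKO, and because Trpm5 also separated Gcg-led from Ins-led cells. They run from 250 bases before to 50 bases after the gene start in RefSeq on GRCm38.p6, which held a promoter for 28 of the 40 described genes. Capitals mark the E-box letters CANNTG, which read alike on both strands and are the general site of basic helix-loop-helix factors. The Kcna2 promoter lies at chr3:107101317-107101616 on the plus strand, where the GENCODE gene starts further upstream. The Kcnk16 promoter lies at chr14:20269220-20269519 on the minus strand and the Trpm5 promoter at chr7:143094593-143094892 on the minus strand.
Kcna2: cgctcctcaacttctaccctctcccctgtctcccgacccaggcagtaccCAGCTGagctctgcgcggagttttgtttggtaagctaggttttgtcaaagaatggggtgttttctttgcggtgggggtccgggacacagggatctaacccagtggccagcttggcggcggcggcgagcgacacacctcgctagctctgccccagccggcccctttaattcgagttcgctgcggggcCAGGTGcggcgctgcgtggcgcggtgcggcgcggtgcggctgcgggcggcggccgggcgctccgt
Kcnk16: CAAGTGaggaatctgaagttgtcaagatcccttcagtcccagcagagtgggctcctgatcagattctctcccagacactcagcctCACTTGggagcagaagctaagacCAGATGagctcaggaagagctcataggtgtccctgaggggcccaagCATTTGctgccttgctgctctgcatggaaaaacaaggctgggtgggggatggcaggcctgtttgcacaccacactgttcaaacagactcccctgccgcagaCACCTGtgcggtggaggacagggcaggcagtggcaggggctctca
Trpm5: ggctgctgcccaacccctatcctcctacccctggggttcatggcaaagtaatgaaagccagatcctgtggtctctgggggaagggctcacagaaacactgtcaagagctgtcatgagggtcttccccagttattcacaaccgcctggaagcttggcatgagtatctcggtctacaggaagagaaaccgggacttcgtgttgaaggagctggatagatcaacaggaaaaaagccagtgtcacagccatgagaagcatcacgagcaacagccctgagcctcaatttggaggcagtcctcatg
The letters CANNTG occurred at 2 places in the Kcna2 window, at 5 in that of Kcnk16 and at 0 in that of Trpm5, and 72.3% of 32851 RefSeq promoters of the same length held them. The letters TGACG, part of the cyclic AMP response element, were searched on both strands and found in 0 of these 3 windows and in 20.8% of all promoters. A match describes letters and is not a binding site.

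The KATP channel genes stood at similar levels in the 3 endocrine groups. Abcc8, the sulfonylurea receptor subunit (ENSMUSG00000040136, chromosome 7, 46104523 to 46180033, minus strand on mm10), had 263 CPM in Ins-led, 256 in Gcg-led and 259.8 in Ppy-led cells of the library labelled SpopβKO. In the Spop fl/fl library it had 254, 309 and 327 CPM. Kcnj11, the pore-forming subunit (ENSMUSG00000096146, chromosome 7, 46093953 to 46100764, minus strand), lies next to Abcc8 and had 37.9, 41.5 and 50.6 CPM in the library labelled SpopβKO and 38.7, 42.9 and 57.9 CPM in Spop fl/fl. Neither gene passed 2-fold between hormone groups or 1.5-fold between libraries in these sums. For Gcg-led over Ins-led cells the log2 ratio of Abcc8 was −0.04 (−0.10 to 0.02) in the library labelled SpopβKO and 0.28 (0.24 to 0.33) in Spop fl/fl, and that of Kcnj11 was 0.13 (−0.023 to 0.28) and 0.15 (0.034 to 0.27). Between the libraries, Ins-led cells gave 0.046 (0.014 to 0.078) for Abcc8 and −0.027 (−0.11 to 0.055) for Kcnj11. With each cell thinned to 5000 UMIs, 64.8% of Gcg-led and 60.9% of Ins-led cells labelled SpopβKO held an Abcc8 UMI, and 64.8% and 57.7% in Spop fl/fl. Without thinning the shares were 70.4% and 64.1%, and 73.1% and 66.5%. In barcodes with endothelial, mesenchymal or macrophage markers and little hormone, which should lack the gene, the thinned share was 4.69% of 64 and 4.08% of 49. These non-endocrine barcodes had medians of 12552 and 14130 UMIs before thinning. Of all 64 and 57 such barcodes, 63 and 54 were themselves Ins-led, so they are also part of the Ins-led sums and shares. The paralogous pair Kcnj8 and Abcc9, known from vascular muscle, did not reach the described set, at 0.369 and 0.617 CPM in Ins-led cells of both libraries together. In the non-endocrine barcodes Kcnj8 had 10.02 CPM unscaled in the library labelled SpopβKO and 31.6 CPM in Spop fl/fl, and Abcc9 had 13.4 and 32.8 CPM.

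**Figure D1:**
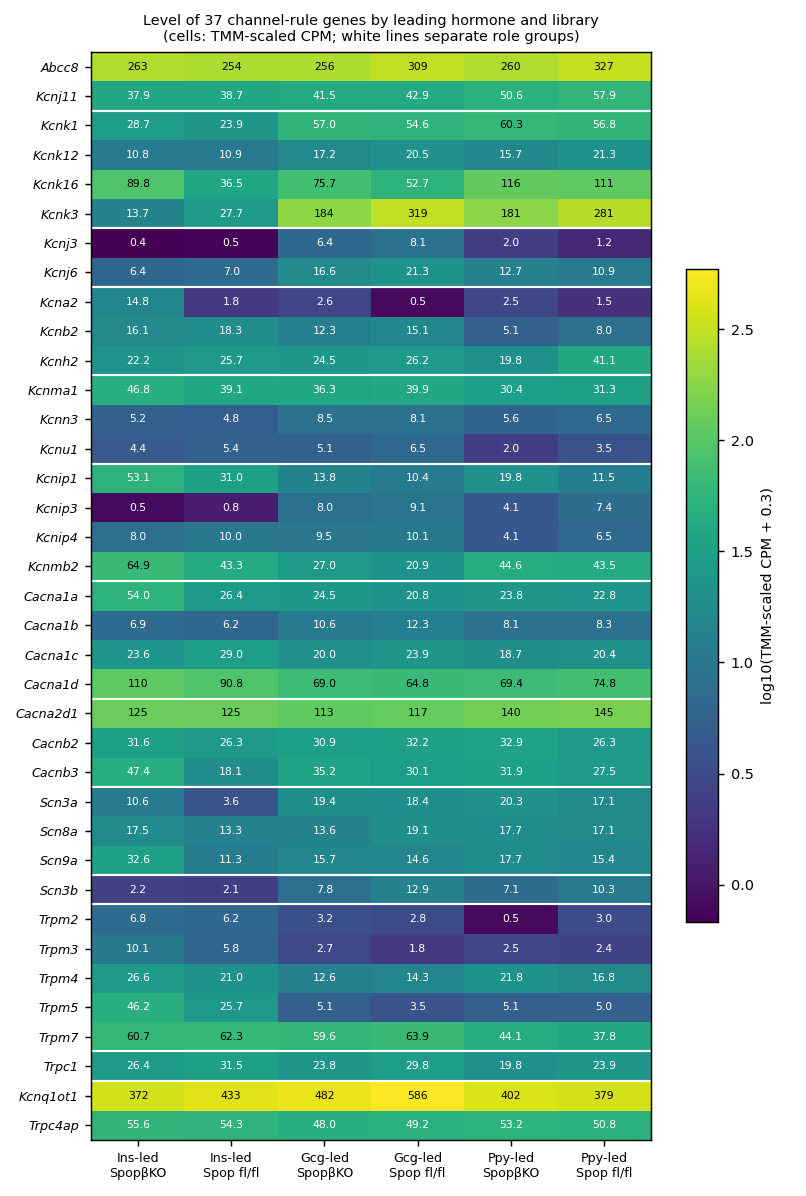
Levels of 37 of the 40 described genes (TMM-scaled CPM printed in each cell, colour on a log10 scale) in Ins-led, Gcg-led and Ppy-led cells of the library labelled SpopβKO and the Spop fl/fl library, grouped by role from KATP subunits at the top to a noncoding RNA at the bottom. Abcc8 and Kcnj11 are near even across the 6 columns, Kcnk3 is high in the Gcg-led and Ppy-led columns, and Trpm5 and Kcnip1 are high in the Ins-led columns.

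Among channel genes at the level minimum, Kcnk3 and Trpm5 separated glucagon-led from insulin-led cells by the widest margins. A gene was called where it passed 2-fold the same way in both libraries and the mean of the pair was at least 5 CPM in each. Of 33 rule-matched genes that met this level minimum, 2 (6.06%) were called higher in Gcg-led cells, Kcnk3 and Kcnj6, where 2.62% of all 10067 features were. Called lower were 3 (9.09%), Trpm5, Kcnip1 and Kcnmb2, where 2.03% of all features were. Below the minimum, Kcnj3, Kcnip3, Scn3b, Kcna2, Trpm2 and Trpm3 also passed 2-fold the same way in both libraries. The median log2 ratio was −0.028 over the 33 and −0.032 over all features. Of the 40 described genes, 18 stayed within 1.5-fold in both libraries, and 32 had the same direction in both.

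Among the Kcnk background potassium channels, Kcnk3 was the one called higher in glucagon-led cells. Kcnk3 (ENSMUSG00000049265, chromosome 5, 30588170 to 30625271, plus strand) encodes an acid-sensitive channel. It had 184 CPM in Gcg-led cells and 13.7 CPM in Ins-led cells of the library labelled SpopβKO, a log2 ratio of 3.75 (3.64 to 3.87). In the Spop fl/fl library it had 319 CPM in Gcg-led and 27.7 CPM in Ins-led cells, a log2 ratio of 3.53 (3.45 to 3.61). The Ins-led level was 7.42% and 8.68% of the Gcg-led level in these libraries. Known alpha-cell genes in Ins-led cells stood at 4.28% and 4.88% of their Gcg-led level for Gcg, 6.08% and 7.38% for Ttr and 6.53% and 7.78% for Irx2, and the part of carried-over RNA in the Ins-led Kcnk3 level was not tested. Under a strict gate that kept cells with little of any other hormone and almost no non-endocrine markers, Kcnk3 had 232 CPM in Gcg-led and 9.35 CPM in Ins-led cells labelled SpopβKO, and 383 and 19.1 CPM in Spop fl/fl. At 5000 UMIs per cell, 52.4% of Gcg-led and 4.17% of Ins-led cells labelled SpopβKO held a Kcnk3 UMI, and 64.5% and 8.30% in Spop fl/fl. The non-endocrine barcodes gave 3.12% (0.381 to 10.8) and 6.12% (1.28 to 16.9). The Ins-led shares lie within these wide intervals, so they could not be told apart from the non-endocrine shares at this depth. Summed and unscaled, Kcnk3 had 3.34 CPM (0.689 to 9.76) in non-endocrine barcodes and 12.8 CPM in Ins-led cells labelled SpopβKO. In Spop fl/fl it had 11.4 CPM (5.20 to 21.6) and 27.0 CPM. Without the strict gate the summed Ins-led levels thus lay above these intervals, which rest on 3 and 9 non-endocrine UMIs. The strict-gate Ins-led levels, 9.35 and 19.1 CPM with TMM factors, lay within them.

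The other Kcnk genes were not called. Kcnk1, a weakly inward-rectifying channel, had 56.95 CPM in Gcg-led and 28.7 CPM in Ins-led cells labelled SpopβKO, and 54.6 and 23.9 CPM in Spop fl/fl, log2 ratios of 0.99 and 1.19. It passed 2-fold in the Spop fl/fl library and missed it narrowly in the other. Kcnk12, a halothane-inhibited channel, stood at 0.67 and 0.91. Kcnk16, a background channel known from mouse beta and delta cells, had log2 ratios on opposite sides of 0, −0.25 (−0.36 to −0.14) in the library labelled SpopβKO and 0.53 (0.42 to 0.64) in Spop fl/fl. The first of these turned to 0.063 under the strict gate and to 0.32 with equal weight per cell.

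Kcnj6, an inward rectifier gated by G proteins, was called higher in glucagon-led cells. It had 16.6 CPM in Gcg-led and 6.42 CPM in Ins-led cells labelled SpopβKO, and 21.3 and 6.96 CPM in Spop fl/fl, log2 ratios of 1.37 (1.10 to 1.63) and 1.61 (1.41 to 1.82). Its partner subunit Kcnj3 did not reach the level minimum. It had 6.38 CPM in Gcg-led and 0.378 CPM in Ins-led cells labelled SpopβKO, and 8.05 and 0.451 CPM in Spop fl/fl, log2 ratios of 4.08 and 4.16. The Ins-led level was 5.93% and 5.60% of the Gcg-led level, within the range of the alpha-cell genes above. Kcnj5, another subunit of this kind, stayed below 5 CPM and stood the other way, at 0.0989 CPM unscaled in Gcg-led cells of both libraries together (3 UMIs) and 1.62 CPM in Ins-led cells (215 UMIs).

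No voltage-gated potassium channel pore was called, and auxiliary subunits were. The delayed rectifier Kcnb2 and the ERG-type Kcnh2 lay between −0.39 and 0.14 on the log2 scale. Kcna2, a low-threshold delayed rectifier, stood at −2.52 and −1.80, below the level minimum. Kcnip1, a calcium-binding partner of A-type potassium channels, had 13.8 CPM in Gcg-led and 53.1 CPM in Ins-led cells labelled SpopβKO, and 10.4 and 31.01 CPM in Spop fl/fl, log2 ratios of −1.95 (−2.20 to −1.70) and −1.58 (−1.80 to −1.37). Its locus shares a strand with the coding gene 4930469K13Rik and lies opposite Kcnmb1, so reads may be split or shared. Kcnmb2, an inactivating subunit of large-conductance calcium-activated channels, had 27.03 CPM in Gcg-led and 64.9 CPM in Ins-led cells labelled SpopβKO, and 20.9 and 43.3 CPM in Spop fl/fl, log2 ratios of −1.26 (−1.45 to −1.09) and −1.05 (−1.21 to −0.90). The Kcnmb2 call ended with equal weight per cell, at −0.92 and −0.82. Kcnma1, the pore that Kcnmb2 modulates, had log2 ratios of −0.37 and 0.031, the small-conductance Kcnn3 0.70 and 0.74 and Kcnu1, known from mouse sperm, 0.21 and 0.25. Kcnip3, also known as a transcriptional repressor, had 7.98 CPM in Gcg-led and 0.532 CPM in Ins-led cells labelled SpopβKO, and 9.08 and 0.848 CPM in Spop fl/fl, below the level minimum. Kcnip4, of the same family, stood at 0.24 and 0.016.

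Calcium channel genes gave no call between glucagon-led and insulin-led cells. The L-type pore Cacna1d had 69.02 CPM in Gcg-led and 110.5 CPM in Ins-led cells labelled SpopβKO, and 64.8 and 90.8 CPM in Spop fl/fl, log2 ratios of −0.68 and −0.49. The other L-type pore, Cacna1c, had −0.24 and −0.28, the P/Q-type pore Cacna1a −1.14 and −0.34 and the N-type pore Cacna1b 0.61 (0.29 to 0.92) and 0.99 (0.74 to 1.23). Among the auxiliary subunits, Cacna2d1, the extracellular subunit bound by gabapentin, had −0.16 and −0.087, and the cytoplasmic Cacnb2 had −0.031 and 0.29. Cacnb3, another cytoplasmic subunit, stood on opposite sides, at −0.43 and 0.73.

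No sodium channel gene was called either, and the pores gave unlike ratios in the 2 libraries. Scn3a, a pore also known from embryonic brain, had 19.4 CPM in Gcg-led and 10.6 CPM in Ins-led cells labelled SpopβKO, a log2 ratio of 0.87 (0.63 to 1.10). In Spop fl/fl it had 18.4 and 3.63 CPM, a log2 ratio of 2.34 (2.09 to 2.60). Scn9a, a pore best known from sensory neurons, had log2 ratios of −1.06 (−1.30 to −0.82) and 0.36 (0.15 to 0.56), and Scn8a, a pore of central neurons, −0.37 and 0.52, so both stood on opposite sides. Between libraries the Gcg-led levels of Scn3a and Scn9a differed by log2 ratios of 0.079 and 0.10, and the Ins-led levels by 1.55 and 1.52. Scn3b, a beta subunit that modulates gating, stood at 1.82 and 2.65, below the level minimum.

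Trpm5 was the TRPM channel called between these groups. Trpm5 (ENSMUSG00000009246, chromosome 7, 143069153 to 143094642, minus strand, with Tssc4 on the opposite strand) encodes a calcium-activated monovalent cation channel of beta cells and taste cells. It had 5.09 CPM in Gcg-led and 46.2 CPM in Ins-led cells labelled SpopβKO, a log2 ratio of −3.18 (−3.61 to −2.79). In Spop fl/fl it had 3.54 and 25.7 CPM, a log2 ratio of −2.86 (−3.23 to −2.51). The Gcg-led level was 11.01% and 13.8% of the Ins-led level, beside 8.78% and 6.60% for Ins2 and 9.16% and 13.5% for Mafa. Other beta-cell genes stood at 5.47% and 4.92% for Ins1 and 8.01% and 13.9% for Slc2a2. Iapp stood at 13.2% and 19.7% and Ucn3 at 13.4% and 18.2%, so Trpm5 lay within the range of these genes. The part of carried-over RNA in the Gcg-led level of Trpm5 was not tested. Its relative Trpm4 had log2 ratios of −1.08 and −0.55. Trpm2, opened by ADP-ribose, and Trpm3, opened by pregnenolone sulfate, did not reach the level minimum, at −1.10 and −1.17 and at −1.91 and −1.65. Trpm7, a channel fused to a kinase, and the cation channel Trpc1 lay between −0.15 and 0.036. Of the matched symbols that are not channel subunits, the long noncoding RNA Kcnq1ot1 stood at 0.37 and 0.44, and Trpc4ap, a ubiquitin ligase adaptor, at −0.21 and −0.14. Kcnq1ot1 lies antisense within Kcnq1, and how the counting used strand is not given in the sources used here.

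**Figure D2:**
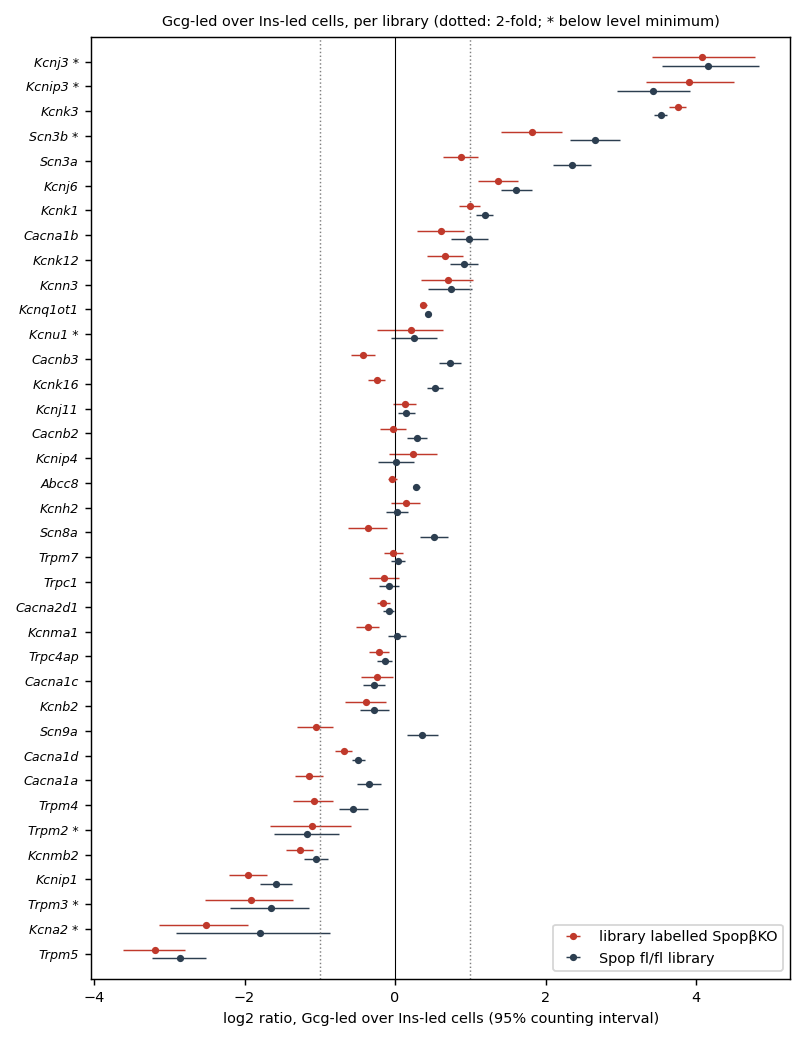
Log2 ratio of Gcg-led over Ins-led cells for 37 of the 40 described genes, with the library labelled SpopβKO and the Spop fl/fl library as separate points and 95% counting intervals as bars. Dotted lines mark 2-fold, and an asterisk marks genes under the level minimum. Kcnk3 sits at 3.75 and 3.53 and Trpm5 at −3.18 and −2.86, while Scn9a, Cacnb3, Kcnk16 and Scn8a have points on opposite sides of 0.

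Polypeptide-led cells, like glucagon-led cells, held more Kcnk3 and less Trpm5 than insulin-led cells. Of 33 genes that met the level minimum, 2 were called higher in Ppy-led than in Ins-led cells, where 1.72% of all features were, and 4 were called lower, where 1.77% were. A gene among these 4 was under 5 CPM in Ppy-led cells of both libraries and met the minimum through Ins-led cells. Kcnk3 had 181 CPM in Ppy-led and 13.7 CPM in Ins-led cells labelled SpopβKO, and 281 and 27.7 CPM in Spop fl/fl, log2 ratios of 3.73 (3.55 to 3.91) and 3.35 (3.23 to 3.46). Kcnk1 had log2 ratios of 1.07 and 1.25. Among the lower genes were Trpm5 at −3.19 and −2.36, Kcnip1 at −1.43 and −1.43 and Kcnb2 at −1.67 and −1.19. Under the strict gate Kcnb2 missed 2-fold in Spop fl/fl, at −0.94, and with cells of 3000 to 30000 UMIs Kcnk1 missed it in the library labelled SpopβKO, at 0.99. The Ppy-led sums held 2085929 and 3752468 UMIs.

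Between libraries, 9 channel genes were called higher and 1 was called lower in insulin-led cells labelled SpopβKO. Here a call means past 1.5-fold with a pair mean of at least 5 CPM. Of 36 rule-matched genes at that level, 9 were higher, where 7.47% of all 10186 features were, and 1 was lower, where 3.38% were. Among the 9, Scn3a and Kcna2 were under 5 CPM in Spop fl/fl and met the minimum only through the library labelled SpopβKO. With a pair mean of at least 10 CPM, 6 of 27 were higher and 1 was lower, where 5.84% and 2.87% of all features were. The median log2 ratio was 0.13 over the 36 and −0.034 over all features. Of the 40 described genes, 29 stayed within 1.5-fold. The counting interval lay wholly above 0 for 17 of the 40 and wholly below it for 10.

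Potassium channel genes gave both the highest and the lowest ratio of the described genes. Kcna2 (ENSMUSG00000040724, chromosome 3, 107101146 to 107115005, plus strand) had 14.8 CPM in Ins-led cells labelled SpopβKO (1059 UMIs) and 1.79 CPM in those of Spop fl/fl (99 UMIs), a log2 ratio of 3.05 (2.76 to 3.37). At 5000 UMIs per cell, a Kcna2 UMI was in 5.79% (5.15 to 6.49) of Ins-led cells labelled SpopβKO and in 0.667% (0.423 to 1.000) of those of Spop fl/fl. The non-endocrine shares were 1.56% (0.0396 to 8.40) and 0% (0 to 7.25). Both Ins-led shares lie within these wide intervals, and that of the library labelled SpopβKO lies above both non-endocrine shares. Summed over the non-endocrine barcodes, Kcna2 had 1 UMI in the library labelled SpopβKO and 0 in Spop fl/fl. Kcnk16 (ENSMUSG00000023387, chromosome 14, 20261376 to 20269199, minus strand) had 89.8 CPM in Ins-led cells labelled SpopβKO and 36.5 CPM in Spop fl/fl, a log2 ratio of 1.30 (1.23 to 1.37). Kcnip1 had 53.1 CPM in Ins-led cells labelled SpopβKO and 31.01 CPM in Spop fl/fl, a log2 ratio of 0.78 (0.69 to 0.86). Kcnmb2 stood just under the limit, at 0.58 (0.51 to 0.65). Kcnk3 was the gene called lower, with 13.7 CPM in Ins-led cells labelled SpopβKO and 27.7 CPM in Spop fl/fl, a log2 ratio of −1.02 (−1.13 to −0.90). As given above, the shares of Ins-led cells with a Kcnk3 UMI at 5000 UMIs per cell could not be told apart from the non-endocrine shares. The summed Ins-led levels lay above the non-endocrine intervals in both libraries without the strict gate, and within them under it. Among the other potassium channel genes at this level, Kcnb2 had −0.18, Kcnh2 −0.21, Kcnma1 0.26, Kcnk1 0.26 and Kcnk12 −0.0099. Kcnj6 had −0.12, Kcnn3 0.11 and Kcnip4 −0.32. None of these passed 1.5-fold.

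The calcium channel genes called were a pore and a cytoplasmic subunit. Cacna1a had 53.99 CPM in Ins-led cells labelled SpopβKO and 26.4 CPM in Spop fl/fl, a log2 ratio of 1.03 (0.95 to 1.12). Cacnb3 had 47.4 CPM in Ins-led cells labelled SpopβKO and 18.1 CPM in Spop fl/fl, a log2 ratio of 1.39 (1.28 to 1.49). The L-type pores were not called, with Cacna1d at 0.28 (0.23 to 0.33) and Cacna1c at −0.30 (−0.39 to −0.20). Cacna2d1 stood at 0.0079, Cacnb2 at 0.27 and Cacna1b at 0.16.

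Sodium channel pores and TRPM channels made up the rest of the calls. Scn9a had 32.6 CPM in Ins-led cells labelled SpopβKO and 11.3 CPM in Spop fl/fl, a log2 ratio of 1.52 (1.39 to 1.65). Scn3a had 10.6 CPM in Ins-led cells labelled SpopβKO and 3.63 CPM in Spop fl/fl, a log2 ratio of 1.55 (1.33 to 1.79). Scn8a, the remaining described pore, was at 0.39 (0.26 to 0.52). Trpm5 had 46.2 CPM in Ins-led cells labelled SpopβKO and 25.7 CPM in Spop fl/fl, a log2 ratio of 0.85 (0.76 to 0.94), and Trpm3 had 10.1 CPM in Ins-led cells labelled SpopβKO and 5.79 CPM in Spop fl/fl, a log2 ratio of 0.81 (0.62 to 1.00). Under the strict gate both TRPM calls ended, narrowly for Trpm3, at 0.45 for Trpm5 and 0.58 for Trpm3. Trpm4 was at 0.34, Trpm2 at 0.14, Trpm7 at −0.038, Trpc1 at −0.25, Trpc4ap at 0.035 and Kcnq1ot1 at −0.22.

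Markers of other cell types also differed between the Ins-led sums. The acinar list summed to 118 CPM in the library labelled SpopβKO and 14.3 CPM in Spop fl/fl, with 7 of 7 genes higher in the library labelled SpopβKO. The macrophage list summed to 178 and 101 CPM (6 of 6 higher), the mesenchymal list to 63.2 and 25.8 CPM (4 of 6), the ductal list to 426 and 269.6 CPM (4 of 5), the glial list to 15.2 and 13.4 CPM (3 of 4) and the endothelial list to 11.8 and 33.05 CPM (0 of 5). No gene of these lists was at 0 in either sum. Under the strict gate, Kcna2 had 13.8 CPM in Ins-led cells labelled SpopβKO and 1.94 CPM in Spop fl/fl, Kcnk16 had 80.01 and 36.5 CPM, and Kcnk3 had 9.35 and 19.1 CPM. The part of acinar and ductal RNA, which that gate does not use, was not tested.

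**Figure D3:**
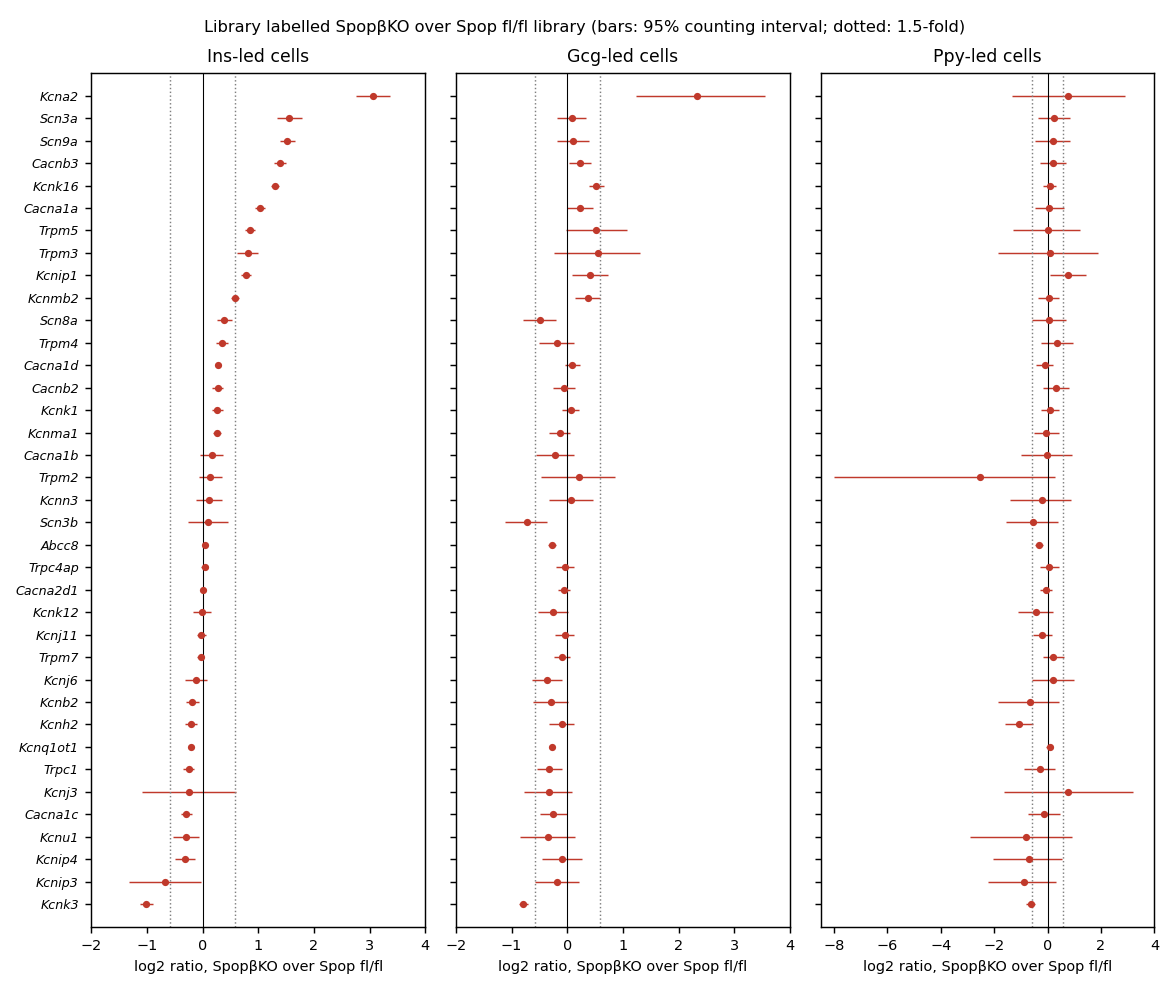
Log2 ratio of the library labelled SpopβKO over the Spop fl/fl library for 37 of the 40 described genes, in Ins-led, Gcg-led and Ppy-led cells, with 95% counting intervals as bars and dotted lines at 1.5-fold. In Ins-led cells the ratio reaches 3.05 for Kcna2 and −1.02 for Kcnk3, in Gcg-led cells 34 of the 37 genes lie within the dotted lines, and the Ppy-led panel has a wider axis.

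In glucagon-led cells no channel gene was called higher and 2 were called lower in the library labelled SpopβKO. Of 36 genes at the level minimum, 0 were higher, where 1.33% of all features were, and 2 were lower, where 1.3% were. Kcnk3 had 184 CPM in Gcg-led cells labelled SpopβKO and 319 CPM in Spop fl/fl, a log2 ratio of −0.79 (−0.87 to −0.71). Scn3b had 7.78 CPM in Gcg-led cells labelled SpopβKO and 12.9 CPM in Spop fl/fl, a log2 ratio of −0.73 (−1.12 to −0.36). Kcnk3 was thus below Spop fl/fl in Gcg-led as well as in Ins-led cells. The genes called higher in Ins-led cells had Gcg-led log2 ratios of 0.079 for Scn3a, 0.10 for Scn9a, 0.23 for Cacnb3, 0.24 for Cacna1a, 0.41 for Kcnip1 and 0.52 for Kcnk16. Trpm5, Trpm3 and Kcna2 were under the level minimum there, with Kcna2 at 2.59 CPM (26 UMIs) in Gcg-led cells labelled SpopβKO and 0.513 CPM (10 UMIs) in Spop fl/fl. Whether the Ins-led and Gcg-led ratios differ was not tested. The Gcg-led sums also differed in other RNA. Ins2 had 11334 CPM in Gcg-led cells labelled SpopβKO and 7013 CPM in Spop fl/fl, and glucagon made up a median of 86.6% and 95.6% of the UMIs of the 4 hormones. Ductal markers summed to 491 and 228 CPM (5 of 5 higher in the library labelled SpopβKO), macrophage markers to 43.5 and 17.8 CPM (6 of 6), acinar markers to 11.9 and 22.6 CPM (1 of 7), glial markers to 19.05 and 17.9 CPM (2 of 4) and endothelial markers to 1.70 and 6.97 CPM (0 of 5). Mesenchymal markers summed to under 10 CPM in both, with 3 of 6 higher in the library labelled SpopβKO. Cdh5, Pdgfrb and Sox10 were at 0 in the sum labelled SpopβKO, and no listed gene was at 0 in that of Spop fl/fl. The part of this RNA in the Gcg-led ratios was not tested.

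In polypeptide-led cells 3 of 36 genes were called higher, where 4.26% of all features were, and 5 lower, where 6.57% were. Kcnh2 had 19.8 CPM in Ppy-led cells labelled SpopβKO and 41.1 CPM in Spop fl/fl, a log2 ratio of −1.06 (−1.61 to −0.54). Kcnk3 had 181 CPM in Ppy-led cells labelled SpopβKO and 281 CPM in Spop fl/fl, a log2 ratio of −0.63 (−0.81 to −0.46). Kcnip1, called higher, had 19.8 CPM in Ppy-led cells labelled SpopβKO and 11.5 CPM in Spop fl/fl, a log2 ratio of 0.78 (0.10 to 1.46). The intervals of Kcnb2, Kcnip3 and Kcnip4, also called lower, included 0, and the other 2 called higher, Kcnh6 and Cacng4, are not among the 40 described genes. Kcnip3, Kcnip4, Kcnh6 and Cacng4 were each under 5 CPM in a single library.

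The libraries also held insulin-led cells of different insulin content. Insulin UMIs made up a median of 8.52% of all UMIs in Ins-led cells labelled SpopβKO and 4.92% in those of Spop fl/fl. Cells with up to 3% insulin were 14.96% of Ins-led cells labelled SpopβKO and 39.3% of those of Spop fl/fl, and cells above 10% were 44.9% and 34.1%. The ratio between libraries was therefore also taken within 3 bins of insulin share, a split chosen after seeing the data.

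Kcna2, Kcnk16, Cacnb3, Scn9a, Scn3a, Cacna1a and Kcnip1 had positive log2 ratios in every insulin bin. From the lowest to the highest bin, Kcna2 had 2.51, 2.66 and 3.42, Kcnk16 had 0.86, 1.10 and 1.35, Cacnb3 had 1.00, 1.34 and 1.29 and Scn9a had 0.80, 1.45 and 2.01. Scn3a had 1.04, 1.31 and 1.95, Cacna1a had 0.33, 0.80 and 1.42 and Kcnip1 had 0.57, 0.93 and 0.77, so that Cacna1a and Kcnip1 missed 1.5-fold in the lowest bin. Of the 9 genes called higher, 5, 7 and 9 passed 1.5-fold in the 3 bins, with no level minimum within the bin. The 9 were chosen from these same cells, so these counts are a description. At the level minimum of each bin, 4 of 34, 7 of 36 and 13 of 36 rule-matched genes were called higher. Of all features, 6.85%, 6.48% and 13.7% were. Trpm5 had 11.7 CPM in the library labelled SpopβKO and 12.6 CPM in Spop fl/fl in cells with up to 3% insulin, 22.3 and 19.8 CPM at 3 to 10%, and 74.6 and 48.4 CPM above 10%. With log2 ratios of −0.11 (−0.42 to 0.19), 0.17 (−0.022 to 0.37) and 0.63 (0.51 to 0.74), it passed 1.5-fold in the highest bin alone. Trpm3 had −0.14, 0.53 and 1.55. Beta-cell markers summed to 11536 and 11651 CPM in the lowest bin, 16448 and 13270.3 CPM in the middle bin and 31206 and 16498 CPM in the highest. In the lowest bin macrophage markers summed to 686 and 251 CPM and acinar markers to 534 and 31.2 CPM, and their part in the ratios was not tested.

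Kcnk3 had 14.6 CPM in the library labelled SpopβKO and 14.6 CPM in Spop fl/fl in cells with up to 3% insulin. At 3 to 10% insulin it had 16.1 and 34.01 CPM, and above 10% it had 11.4 and 37.1 CPM, log2 ratios of −1.08 (−1.27 to −0.90) and −1.70 (−1.88 to −1.51). The call thus came from the upper bins. Gcg had 1371 and 1407 CPM in the lowest bin, 3958 and 6058 CPM in the middle bin and 3991 and 7304 CPM in the highest. Both genes rose across the bins in Spop fl/fl. In the library labelled SpopβKO Gcg rose, while Kcnk3 was lowest in the highest bin. The 7 alpha-cell markers summed to 309 and 217 CPM, 377 and 466 CPM, and 433 and 568 CPM. The part of carried-over glucagon-cell RNA in the Kcnk3 ratio was not tested. The KATP genes stood on both sides of 0 across the bins, with Abcc8 at −0.31, −0.17 and 0.31 and Kcnj11 at −0.41, 0.073 and 0.35.

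**Figure D4:**
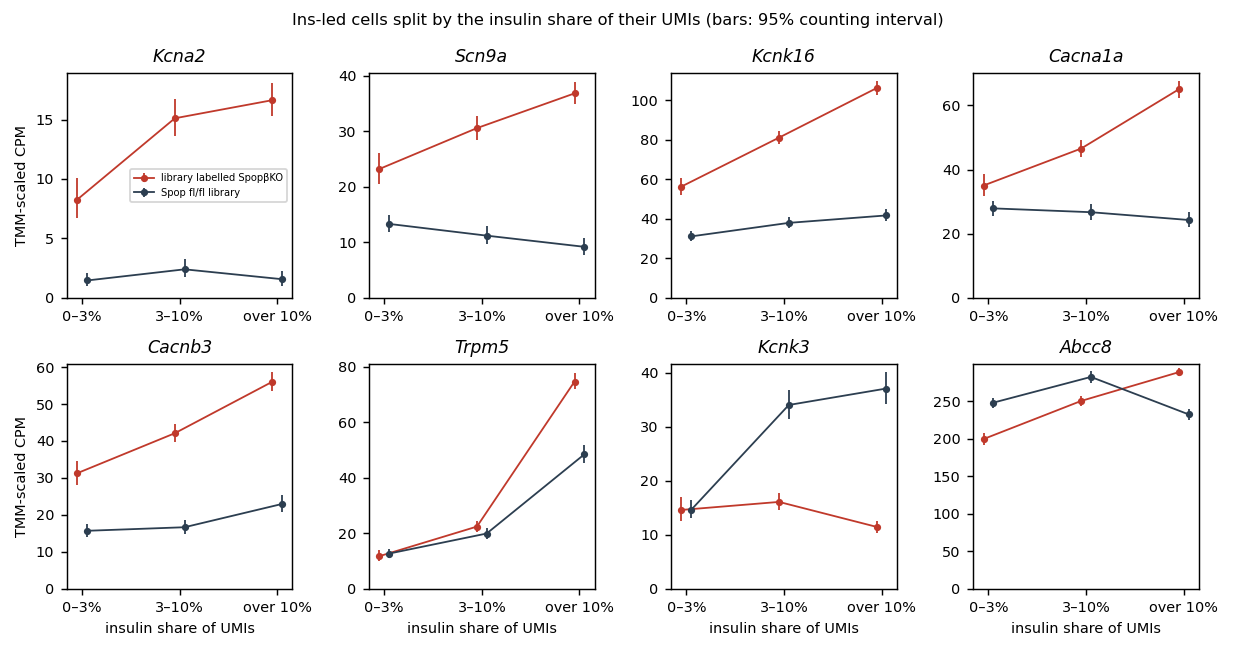
Levels (TMM-scaled CPM, linear axes from 0) of 8 genes in Ins-led cells of the library labelled SpopβKO and the Spop fl/fl library, split by the insulin share of each cell's UMIs, with 95% counting intervals as bars. Kcna2, Scn9a, Kcnk16, Cacna1a and Cacnb3 lie above Spop fl/fl in the library labelled SpopβKO in all 3 bins, Trpm5 levels lie close together up to 10% insulin, and Kcnk3 levels meet in the lowest bin.

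The share of mitochondrial UMIs, a sign of cell and RNA quality, gave another split. Ins-led cells with up to 2% were 53.6% of those labelled SpopβKO and 58.9% of those of Spop fl/fl, and cells with 5 to 15% were 17.1% and 13.6%. Beta-cell markers also rose across these bins. In the library labelled SpopβKO they summed to 14210, 29196.5 and 39935 CPM from the lowest to the highest bin. In Spop fl/fl the sums were 9497, 15584 and 27068 CPM. Acinar markers summed to 193 and 21.9 CPM in the lowest bin, and macrophage markers to 123 and 21.6 CPM in the highest. The part of this RNA in the ratios was not tested. All 9 genes called higher had positive log2 ratios in the 3 bins. With no level minimum within the bin, 7, 9 and 8 of them passed 1.5-fold. The 9 were chosen from these same cells, so these counts are a description. At the level minimum of each bin, 6 of 32, 10 of 36 and 11 of 40 rule-matched genes were called higher. Of all features, 6.29%, 8.87% and 10.1% were. Kcna2 had log2 ratios of 2.86, 2.86 and 3.76 from the lowest to the highest bin. Kcnk3 had −0.37, −1.86 and −1.63, Trpm5 had 0.33, 1.23 and 1.22, and Trpm3 had 0.42, 0.83 and 0.97. Kcnk3, Trpm5 and Trpm3 did not pass 1.5-fold in cells with up to 2%, and Kcna2 did.

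Somatostatin-led barcodes were too few for a call, and a wider gate was added after seeing the data. In the Sst-led sums of 111560 and 242506 UMIs, Abcc8 had 290.4 CPM in the library labelled SpopβKO and 175 CPM in Spop fl/fl, from 37 and 50 UMIs. Barcodes with Sst at 0.2% or more of their UMIs numbered 88 in the library labelled SpopβKO and 82 in Spop fl/fl. Of these, 14 and 24 were led by Sst, and 60 and 32 by insulin. Hhex, the delta-cell factor, had 92.5 CPM in the gate and 3.84 CPM in the remaining Ins-led cells labelled SpopβKO, and 64.2 and 4.28 CPM in Spop fl/fl. The delta-cell markers Rbp4 and Ghsr were also higher in the gate in both libraries. Sstr3, the other listed marker, stood close, at 35.5 and 36.8 CPM in the library labelled SpopβKO and 28.1 and 23.3 CPM in Spop fl/fl. The gate also held Gcg at 11611 and 14176 CPM and Ins2 at 43089 and 33691 CPM, so it mixes hormones. Of 32 rule-matched genes at the level minimum, 2 were called higher than in Ins-led cells, where 1.83% of all features were, and 2 lower, Trpm5 among them, where 0.946% were. Scn3a had 28.1 CPM in the gate and 10.2 CPM in Ins-led cells labelled SpopβKO, and 15.9 and 3.45 CPM in Spop fl/fl, log2 ratios of 1.46 and 2.21. Kcnk3 had 41.3 and 13.2 CPM, and 109 and 26.4 CPM. Scn3a had 19.4 and 18.4 CPM in the Gcg-led sums given above, and Kcnk3 was also higher there than in Ins-led cells. The part of the gate's glucagon-cell RNA in the Scn3a and Kcnk3 levels was not tested.

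Some calcium channel genes had UMIs in this gate and were scarce in insulin-led cells, a contrast that their choice fixes. They were among the 11 genes that reached 5 CPM only in the Sst-led sum, the gate holds those same Sst-led barcodes, and they were singled out after their values were seen, so the values are a description. Cacna1h, a low-voltage-activated T-type pore, had 10.7 CPM in the gate (13 UMIs) and 0.510 CPM in Ins-led cells labelled SpopβKO, and 9.17 CPM (15 UMIs) and 0.497 CPM in Spop fl/fl. Cacna2d2, an extracellular auxiliary subunit, had 18.2 (22 UMIs) and 0.978 CPM, and 6.73 (11 UMIs) and 0.764 CPM. Cacng2, an auxiliary subunit also known for trafficking glutamate receptors, had 7.43 (9 UMIs) and 0.482 CPM, and 4.89 (8 UMIs) and 0.337 CPM. None of these genes met the level minimum here.

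**Figure D5:**
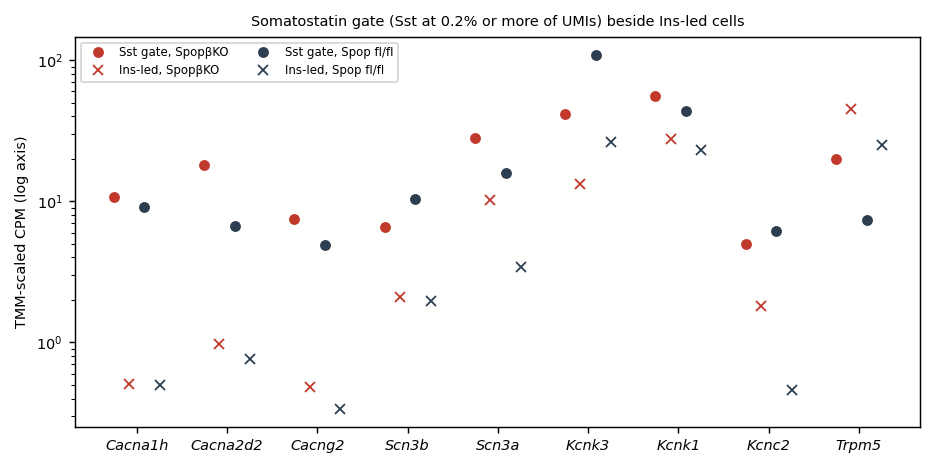
Levels (TMM-scaled CPM, log axis) of 9 genes in barcodes with Sst at 0.2% or more of UMIs (circles) beside Ins-led cells (crosses), in the library labelled SpopβKO and the Spop fl/fl library. Cacna1h, Cacna2d2 and Cacng2 lie below 1 CPM in Ins-led cells and between 4.89 and 18.2 CPM in the gate, and Trpm5 is lower in the gate in both libraries.

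Ion transport genes outside the rule, 59 listed pumps, exchangers, release channels, chloride channels and ligand-gated channels, were counted in the same way. Between Gcg-led and Ins-led cells 43 met the level minimum. The 3 called higher in Gcg-led cells were the plasma membrane calcium pump Atp2b4 and the AMPA receptor subunits Gria2 and Gria3, where 2.62% of all features were. Gria2 had 104 CPM in Gcg-led and 10.9 CPM in Ins-led cells labelled SpopβKO, and 132 and 11.9 CPM in Spop fl/fl. The 3 called lower, where 2.03% of all features were, were the reticulum calcium pump Atp2a2, the inositol trisphosphate receptor Itpr2 and the NMDA receptor subunit Grin1, with Grin1 at 2.59 and 12.01 CPM, and at 2.77 and 12.7 CPM. Between the Ins-led sums 5 of 45 were called higher in the library labelled SpopβKO (Atp2a3, Itpr1, Nalcn and Gria3 among them), where 7.47% of all features were, and 0 lower, where 3.38% were. Atp2a3, a reticulum calcium pump, had 114 CPM in Ins-led cells labelled SpopβKO and 64.7 CPM in Spop fl/fl. In Gcg-led cells 0 of 42 were called between libraries in either direction, where 1.33% of all features were higher and 1.3% lower.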

How the data were processed

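Dispersed islets were profiled with the 10x Genomics 3′ v3.1 chemistry, per the labels' protocols. The authors deposited raw UMI counts per gene and barcode. The file headers name Cell Ranger 6.0.0 as the program that wrote them. The build mm10 and the tools R 4.1.1 and Seurat 4.1.0 are listed in the submitters' processing notes, with no role stated. Whether intronic or antisense reads were counted is not given in the sources used here.

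A barcode was kept if it had 500 or more genes and a mitochondrial share of no more than 15%, and was assigned to the hormone with most UMIs among insulin (Ins1 and Ins2 together), Gcg, Sst and Ppy. Ties and barcodes without hormone, 4 and 5, were left out. No doublet caller was run, and the strict gate limits mixed barcodes. The leading hormone had to be 80% of the 4 hormones and 1% of all UMIs, with at most 1 UMI of non-endocrine markers. Under this gate Gcg-led cells still held Ins2 at 7831 CPM in the library labelled SpopβKO and 3020 CPM in Spop fl/fl. Ins-led cells held Gcg at 2023 and 2613 CPM. UMIs were summed per group and library and scaled with edgeR 4.0.16 TMM factors over the 8 sums, in R 4.3.3 and Python 3.11.15. Intervals are exact Poisson for sums, exact conditional for ratios and Clopper-Pearson for shares. No model was fitted, and groups under 50 cells were given as values. Thinning to 5000 UMIs left out 2619 and 1315 Ins-led and 362 and 324 Gcg-led cells of the library labelled SpopβKO and of Spop fl/fl. A few genes are counted but not reported by name here. Positions came from GENCODE M21 (40 of 40 matched). The named genes were a list of 20 where described, up to 8 on each side of a hormone contrast, and up to 10 (Ins-led) or 6 (Gcg-led) on each side between libraries. Genes, lists and rules were chosen with earlier results of these data known.

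The alternatives were unscaled CPM, DESeq2 1.42.0 size factors, the strict gate, other barcode and level filters, equal weight per cell, sums without hormone UMIs and bins of mitochondrial share. The insulin bins and the somatostatin gate were added later. The steps were tested on simulated counts.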

Additional observations from a re-analysis of the deposited data

Results flagged for a closer look

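Some channel genes had a hormone contrast of opposite sign in the 2 libraries, with each counting interval on its own side of 0. The difference between the libraries was not tested for any of them. Between Gcg-led and Ins-led cells, the log2 ratio of Scn9a was −1.06 and 0.36 in the library labelled SpopβKO and in Spop fl/fl, that of Kcnk16 was −0.25 and 0.53, that of Cacnb3 was −0.43 and 0.73, and that of Scn8a was −0.37 and 0.52. Between Ppy-led and Ins-led cells, Scn9a had −0.88 and 0.44, Cacnb3 had −0.57 and 0.60, and Kcnq1ot1 had 0.11 and −0.19. The Kcnq1ot1 value of the library labelled SpopβKO was −0.018 under the strict gate.

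Abcc8 and Scn8a had a library contrast of opposite sign in Ins-led and Gcg-led cells, and this difference was not tested. Abcc8 stood at 0.046 in Ins-led and −0.28 in Gcg-led cells, and Scn8a at 0.39 and −0.50. The Ins-led value of Abcc8 was −0.076 under the strict gate.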

How the results depend on the processing

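The 34 called gene values of the hormone contrasts and of the Ins-led and Gcg-led library contrasts kept their direction in 352 of 354 recomputations. Calls between the Ppy-led sums and calls of the somatostatin gate were not among the 34. The 34 values were chosen for their size and each recomputation drew on the same libraries, so the kept direction is no independent check. Both exceptions were in Ins-led cells with up to 3% insulin, where the library log2 ratio was −0.11 for Trpm5 and −0.14 for Trpm3. Calls also ended for Kcnmb2 between Gcg-led and Ins-led cells of Spop fl/fl with DESeq2 size factors, and for Kcnip1 between libraries in cells with 5 to 15% mitochondrial UMIs, at 0.53. The number of described genes was 40, and between 31 (10 CPM minimum) and 52 (2 CPM minimum) under the alternatives. With no filter on level, the counts of rule-matched genes were 18 higher and 27 lower of 135 for Gcg-led over Ins-led cells (2 and 3 with the filter), where 5.89% and 12.1% of all features were, and 13 and 50 of 132 for Ppy-led over Ins-led cells (2 and 4), where 3.34% and 22.5% were. Between libraries, without that filter, they were 51 and 26 of 148 in Ins-led cells (9 and 1), where 25.3% and 13.2% were, 26 and 40 of 129 in Gcg-led cells (0 and 2), where 13.5% and 18.6% were, and 26 and 23 of 90 in Ppy-led cells (3 and 5), where 16.2% and 19% were. Under the strict gate, 5 genes were called higher in Gcg-led and 4 in Ppy-led than in Ins-led cells (4.1% and 3.05% of all features), and 5 were higher between the Ppy-led sums (8.99%). With equal weight per cell, 5 were higher in Gcg-led and 4 in Ppy-led than in Ins-led cells (3.78% and 2.99% of all features), 2 were lower between the Ins-led sums (3.6%) and 1 was higher between the Gcg-led sums (1.78%). With a pair mean of at least 10 CPM, 1 was higher and 2 were lower between the Ppy-led sums (2.55% and 4.55% of all features). Unscaled CPM gave 3 lower there (4.83%), and put the median of all features for Ppy-led over Ins-led cells in Spop fl/fl at −0.19, against −0.071 with TMM. In Ins-led cells with up to 3% insulin, 4 genes at the level minimum of that bin were higher between libraries (6.85% of all features). Kcna2 also passed 1.5-fold there but was under that minimum. The cause of these moves was not tested. No paired analysis was possible because each genotype has 1 library.

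A gene with 0 UMIs could have had up to 0.0420 CPM in the Ins-led and 1.52 CPM in the Ppy-led sum labelled SpopβKO, and 0.0541 and 0.887 CPM in Spop fl/fl, from 3 counts. In the Sst-led sums these floors were 23.5 and 10.5 CPM, so a gene at 5 CPM may have gone undetected there.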
